A study of Homo sapiens with 2 samples.

Results

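Far intergenic peaks of control PANC-1 cells were those whose summit, the base of highest coverage, lay in no protein-coding gene, more than 1 kb from every end of a long noncoding RNA (lncRNA) gene and more than 50 kb from the nearest end of a protein-coding gene. They numbered 741 of the 15186 peaks analysed in the DMSO sample, or 4.88% (exact Clopper-Pearson 95% interval 4.54% to 5.23%). The study used ChIPmentation, an immunoprecipitation of crosslinked chromatin in which Tn5 transposase inserts the sequencing adapters while the chromatin is still on the beads. PANC-1 is an established cell line from a human pancreatic ductal adenocarcinoma. The samples were 2 in number, from cells given the solvent DMSO and from cells given inflachromene, a compound that binds the nuclear proteins HMGB1 and HMGB2. Both samples carried the same label in every other respect. Neither the target of the antibody nor the dose or length of exposure is given in the sources used here, so a peak is described only as a place where fragments piled up.

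Intergenic DNA far from genes holds enhancers, which are short stretches bound by transcription factors that act on promoters over long distances. It also holds genes for small RNAs. Transfer RNA genes are transcribed by RNA polymerase III from promoter elements inside the gene, often in large clusters, while the U1 small nuclear RNA of the spliceosome is transcribed by RNA polymerase II from short genes with copies in repeated DNA. Pseudogenes are copies of genes that have usually lost their coding function, and some retain a promoter.

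Sequence could be shown for the few members that lie over a RefSeq promoter window (250 bases before to 50 after a gene's start) or a mature microRNA, 2 members and 1 member respectively among all 741. The 2 windows are printed because they are the promoter windows that far intergenic peaks overlap. Both are on GRCh38.p14, and capitals mark matches to the motifs searched. Both summits lie inside a lncRNA gene and, by the rule, more than 1 kb from every lncRNA gene end. The starts in these windows are therefore not ends of the lncRNA genes used for the rule. Which transcripts they belong to was not tested. The window of LOC105373480, a lncRNA gene, is chr2:740636-740935 on the plus strand, and its first 290 bases lie in the peak. The window of LINC03006, another lncRNA gene, is chr7:65750875-65751174 on the minus strand, and its bases 30 to 300 lie in the peak. The summit of that peak is also in or within 1 kb of a pseudogene, CCT6P1. It is counted below among the pseudogene members.
LOC105373480: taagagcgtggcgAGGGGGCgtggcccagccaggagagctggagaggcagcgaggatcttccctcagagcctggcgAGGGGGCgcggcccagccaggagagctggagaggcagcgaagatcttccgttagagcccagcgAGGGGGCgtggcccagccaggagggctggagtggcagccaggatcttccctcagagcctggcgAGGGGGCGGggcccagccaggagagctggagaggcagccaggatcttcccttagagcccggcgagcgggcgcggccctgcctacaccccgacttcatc
LINC03006: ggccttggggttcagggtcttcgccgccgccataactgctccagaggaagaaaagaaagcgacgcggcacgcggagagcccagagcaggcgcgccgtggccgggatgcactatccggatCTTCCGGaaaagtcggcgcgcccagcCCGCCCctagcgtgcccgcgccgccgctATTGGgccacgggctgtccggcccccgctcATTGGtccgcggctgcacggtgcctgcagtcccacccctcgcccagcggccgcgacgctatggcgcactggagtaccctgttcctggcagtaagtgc

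The LOC105373480 window was 70.0% G or C and held 19 CpG dinucleotides, against medians of 58.7% and 14 over 34961 RefSeq windows of the same length. It repeats a unit of 63 bases, so the CTCF core letters AGGGGGC occur 4 times, first at position 14 and last at position 203, counted from the window's 5′ end. That core was found at least once in 14.4% of all windows and at least 4 times in 0.0715%. The last copy overlaps the single match to the SP/KLF letters GGGCGG, which 45.0% of windows hold. The LINC03006 window was 69.7% G or C with 35 CpG dinucleotides. It held 2 matches to the NFY letters CCAAT (34.6% of windows), 1 to the ETS letters CCGGAAG (10.3%) and 1 to GGGCGG, each on the strand opposite to the one printed. No match to the other 10 of the 14 motifs was found in either window on either strand. These were AP-1 TGANTCA, CRE TGACGTCA, TEAD GGAATG, RUNX TGTGGTT, NRF1 GCATGCGC, YY1 AAGATGGC, FOX TGTTTAC, E-box CACGTG, HNF1 GTTAATNAT and the GATA letters TGATAA, which 0.792% (HNF1) to 14.04% (TEAD) of all windows hold.

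The peak over the LOC105373480 start, chr2:739956-740925, reached a pileup of 57 fragments in DMSO and 51 in inflachromene. The pileup is the number of fragments that cover the summit. The peak over the LINC03006 start, chr7:65750686-65751145, reached 31 in DMSO and 19 in inflachromene. Each inflachromene value is taken at the summit of the overlapping inflachromene peak, and the ratios were 0.895 and 0.613. Whether the inflachromene peaks also cover the starts was not tested.

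MicroRNAs are short RNAs that pair with target messages through their seed, bases 2 to 8, which is in capitals. The mature sequence of hsa-miR-1973 lies inside a member, and that of hsa-miR-6077 lies beside a member whose ratio of inflachromene to DMSO pileup was among the 4 highest at a mean pileup of 30 or more.
hsa-miR-1973: aCCGUGCAaagguagcaua
hsa-miR-6077: gGGAAGAGcuguacggccuuc

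The hsa-miR-1973 sequence is at chr4:116299750-116299768 on the plus strand (GRCh38.p14). The peak around it, chr4:116299346-116300154, was 16 fragments high in DMSO and 24 in inflachromene. The hsa-miR-6077 sequence is at chr1:148388294-148388314 on the plus strand, just outside the peak chr1:148388350-148389082, which was 34 fragments high in DMSO and 43 in inflachromene. Of the other microRNA members, the peak beside MIR10396A was lower in inflachromene (78 and 70), and those near MIR3648-2 (45) and MIR5708 (14) were called in DMSO alone. The seeds of the printed sequences differ, so they form no shared seed group.

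Each treatment was represented by 1 sample and 1 deposited peak list, so no test between treatments was possible and no p-value is given. Of 15354 DMSO and 10991 inflachromene peaks deposited, the 15186 and 10836 on chromosomes 1 to 22 and X were analysed. The inferred fragment number of the inflachromene library was 0.965 times that of DMSO, and the mean fragment lengths were inferred as 165.7 bp and 152.4 bp. Intervals given here are exact 95% intervals, Clopper-Pearson for shares and Poisson for pileups, and cover counting error only, with no part for variation between cultures.

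Members were weaker and narrower than the typical peak of the sample. Their DMSO pileup ran from 7 to 163 fragments with a median of 17 and quartiles of 13 and 23, against a median of 23 over all DMSO peaks and 27 at protein-coding gene ends, defined as within 1 kb of an end. The median for peaks inside protein-coding genes was 20, the same as for intergenic peaks within 50 kb of a gene. The fold enrichment is the caller's ratio of pileup to local background, with 1 added to both. It had a median of 7.001 at members and ranged from 2.94 to 18.7, against a median of 7.89 over all DMSO peaks. Median width was 244 bp at members and 305 bp over all DMSO peaks. Intergenic peaks within 50 kb had a median fold enrichment of 6.98 and a median width of 238 bp. For peaks inside protein-coding genes these were 6.94 and 255 bp, so in enrichment and width the members were like both classes. The rule set their distance to the nearest protein-coding gene end above 50 kb, and the median was 100.2 kb, with quartiles of 68.2 and 174.8 kb and a maximum of 3554 kb.

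At the edge of the distance rule, the 5 members nearest to it lay 50.14 to 50.25 kb from a gene end, with pileups of 10, 9, 20, 17 and 14, and none had an inflachromene peak. The 5 excluded peaks nearest to it lay 49.72 to 49.98 kb away, with pileups of 15, 16, 16, 17 and 34, and 2 of them had one. Pileups on the 2 sides of the edge overlapped.

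The main comparison asked which far intergenic peaks of control cells were also called after inflachromene. An inflachromene peak overlapped 330 of the 741 members by at least 1 bp, or 44.5% (40.9% to 48.2%). The other 411, or 55.5% (51.8% to 59.1%), were called in DMSO alone, compared with 35.5% of all DMSO peaks. The DMSO list is the longer, and when it was shortened by q-value to the 10836 peaks of the inflachromene list, 136 of 388 members (35.1%) were DMSO alone, compared with 20.6% of all DMSO peaks kept. In the full lists the overlapped share was 48.2% (46.0% to 50.3%) for intergenic peaks within 50 kb, 51.7% (50.05% to 53.3%) inside protein-coding genes, 61.5% (57.3% to 65.5%) at lncRNA gene ends and 76.2% (75.3% to 77.1%) at protein-coding gene ends. The interval of the members overlapped that of intergenic peaks within 50 kb and lay below those of the other 3 classes. The inflachromene peak that overlapped a member was itself far intergenic in all 330 cases.

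The overlapped share was larger in each higher band of pileup. It was 9.09% (15 of 165) for members of 7 to 12 fragments, 30.8% (57 of 185) for 13 to 16, 47.3% (88 of 186) for 17 to 22, 74.8% (92 of 123) for 23 to 34 and 95.1% (78 of 82) for 35 or more. In those same bands the share at protein-coding gene ends was 25.1%, 40.2%, 59.5%, 86.9% and 98.8%, above the members in each band. The intervals did not overlap in the bands of 7 to 12, 17 to 22 and 23 to 34 fragments. Intergenic peaks within 50 kb gave 10.9%, 26.04%, 40.5%, 64.6% and 91.4%, and their intervals overlapped those of the members in every band. The far intergenic share was the higher of these in 4 of the 5 bands and the lower at 7 to 12 fragments, and the difference was not tested. Peaks inside protein-coding genes gave 13.1%, 26.98%, 42.1%, 69.1% and 94.9%, below the members in every band but that of 7 to 12 fragments. Peaks at lncRNA gene ends gave 19.05%, 30.3%, 51.05%, 72.5% and 95.7%, with the members now above and now below. The intervals of both classes overlapped those of the members in every band.

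**Figure D1:**
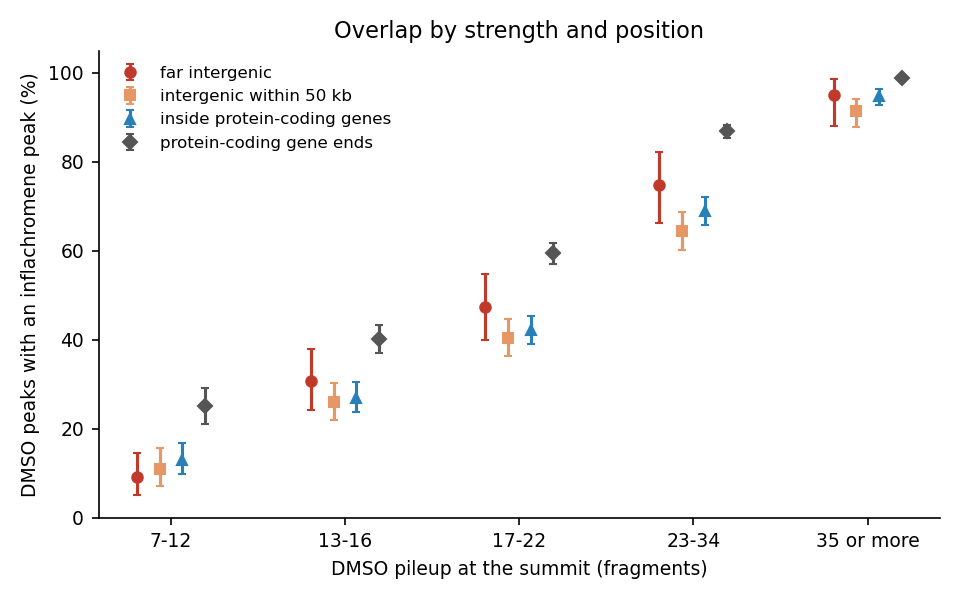
Share of DMSO peaks with an overlapping inflachromene peak (vertical axis, %) in 5 bands of DMSO pileup (horizontal axis, fragments), for far intergenic peaks, intergenic peaks within 50 kb, peaks inside protein-coding genes and peaks at their ends; points are shares and bars exact 95% intervals. The far intergenic share climbs from 9.09% to 95.1% and runs beside the intergenic and gene-body peaks, with gene-end peaks above in each band.

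Members called in both samples had a median DMSO pileup of 23 and a median width of 316 bp, and those called in DMSO alone 14 and 203 bp. The highest pileup among the latter was 45. Local background was also higher at overlapped members, with a median of 1.91 against 1.25 fragments. Among members of 35 or more fragments, 4 had no inflachromene peak. One, chr7:73247026-73247254 with 35 fragments, lies near NSUN5, and the others, of 43, 43 and 45 fragments, lie in stretches of high background near IFNE, MTAP and MIR3648-2 with fold enrichments below 4. The 3 named last were chosen after their values were seen.

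**Figure D2:**
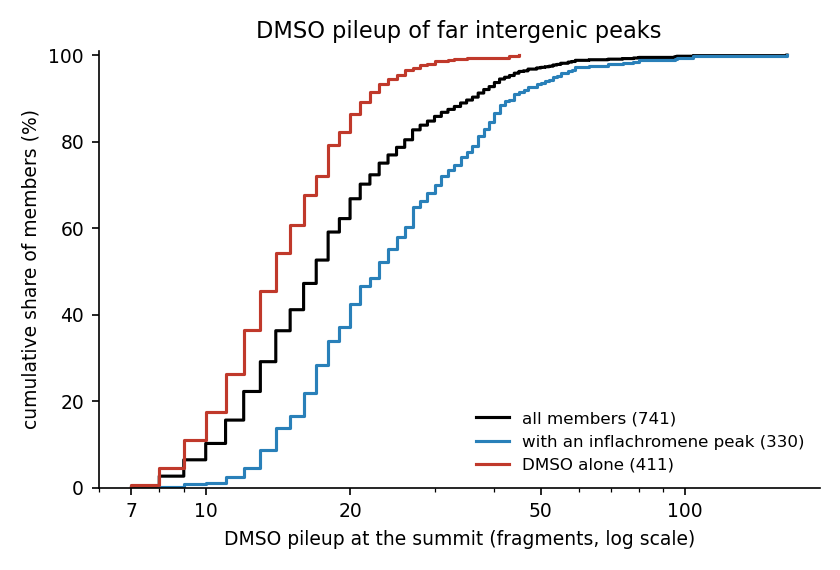
Cumulative share of members (vertical axis, %) by DMSO pileup at the summit (horizontal axis, fragments, log scale), for all 741 members, the 330 with an inflachromene peak and the 411 called in DMSO alone. The DMSO-alone curve lies to the left, with a median of 14 against 23 fragments, and ends at 45.

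At the 330 members called in both samples, the inflachromene pileup had a median of 0.857 times that in DMSO (quartiles 0.723 and 1.04). This lies below the 0.965 ratio of fragment numbers, which leaves out the longer fragments of inflachromene. The lowest local background, which reflects number and length together, was 0.651 fragments in DMSO and 0.683 in inflachromene. The pileup was lower in inflachromene at 227 members (68.8%), higher at 87 and equal at 16. Over all overlapped DMSO peaks the median ratio was 0.833, with 74.7% lower. At least 1.5-fold lower were 62 of the 330 (18.8%), compared with 18.3% of all overlapped DMSO peaks. At least 1.5-fold higher were 6 (1.82%), compared with 1.46% of all overlapped DMSO peaks. Both shares were near that background. Among the 79 members whose mean pileup was at least 30, the median ratio was 0.825 and 63 were lower.

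**Figure D3:**
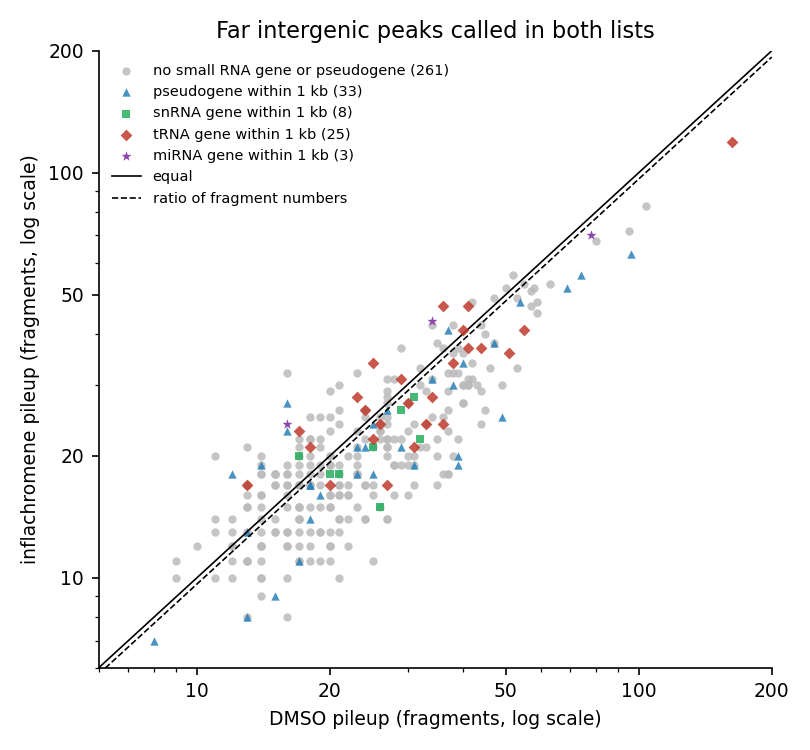
Inflachromene pileup (vertical axis, fragments, log scale) against DMSO pileup (horizontal axis, fragments, log scale) at the 330 members called in both samples, with a separate marker for members within 1 kb of a tRNA, snRNA or miRNA gene or a pseudogene. The solid line marks equal pileups and the dashed line the ratio of fragment numbers, 0.965, which leaves out fragment length. Below the solid line lie 227 points and above it 87.

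The member of highest pileup had its summit in or within 1 kb of a glycine tRNA gene, TRG-CCC1-2. This peak, chr1:16861908-16862587, lay 51.9 kb from CROCC, the gene of a ciliary rootlet protein. Its pileup was 163 fragments (139 to 190) in DMSO and 119 (98.6 to 142) in inflachromene, a ratio of 0.730 with overlapping intervals. Its fold enrichment in DMSO was 17.9. The highest fold enrichment of any member was 18.7, at chr17:83247179-83247392, 152.1 kb from METRNL, which encodes a secreted protein. That peak was 40 fragments high in DMSO and 30 high in inflachromene.

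Of the 8 overlapped members with the highest fold enrichment, all 8 were lower in inflachromene. They were ranked by their DMSO values, so this count is no test of a change. Among all 330 overlapped members 68.8% were lower, as were 63 of the 79 with a mean pileup of at least 30. The peak chr2:64750804-64751500 near LOC124907776 had 104 fragments in DMSO and 83 in inflachromene. The peak chr7:73235307-73235783, at the pseudogene NCF1B and 67.0 kb from NSUN5, a gene for an RNA methyltransferase, had 96 (77.8 to 117) and 63 (48.4 to 80.6). These intervals overlap only narrowly. The peak chr7:121530239-121530724, 134.2 kb from FAM3C, a gene for a secreted protein, had 58 and 52. The peak chr10:38356161-38356594, at the pseudogene HSD17B7P2 near the zinc-finger gene ZNF37A, had 47 and 38, and chr2:41840750-41841055 near PKDCC, a gene for a secreted kinase, had 40 and 27. For none of the peaks named in this paragraph do the paired counting intervals separate.

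Among overlapped members of mean pileup 30 or more, the lowest ratios were 0.510 to 0.578. The peak chr17:30731383-30732092 at the pseudogene SUZ12P1, 51.1 kb from CRLF3, had 49 fragments (36.3 to 64.8) in DMSO and 25 (16.2 to 36.9) in inflachromene. SUZ12P1 is a copy of SUZ12, which encodes a Polycomb subunit. The peak chr12:53825352-53825761, inside a lncRNA gene and 98.1 kb from CALCOCO1, had 44 in DMSO and 24 in inflachromene. The peak chr3:198098957-198099415 near LMLN had 39 and 22, and chr10:78775026-78775547, 293.8 kb from ZMIZ1, a gene for a transcriptional coregulator, had 45 and 26. The intervals of all 4 pairs overlapped.

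The highest ratios in the same set were 1.24 to 1.31. The peak chr6:27672028-27672528 had 36 fragments (25.2 to 49.8) in DMSO and 47 (34.5 to 62.5) in inflachromene. Its summit lay in or within 1 kb of the serine tRNA gene TRS-CGA3-1. The peak chr9:21549327-21549683, 67.3 kb from the interferon gene IFNE, had 29 and 37. The peak beside MIR6077 described above had 34 and 43, and chr10:128464393-128464617, 338.1 kb from the proliferation marker gene MKI67, had 34 and 42. Every one of these 4 pairs had overlapping intervals.

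Below that pileup, 6 members were at least 1.5-fold higher in inflachromene. The highest ratio was at chr2:181791380-181791592 near ITPRID2, from 16 fragments (9.15 to 25.98) to 32 (21.9 to 45.2), a ratio of 2.0 with overlapping intervals. The others were near LRRC28 (11 and 20), ZNF195 (16 and 27), POU3F4 (13 and 21), METTL14 (12 and 18) and TRAM1L1 (16 and 24, the MIR1973 peak). These 6 were chosen after their values were seen, apart from the MIR1973 peak shown for its sequence.

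Of the members called in DMSO alone, the 6 of highest fold enrichment were as follows. The peak chr7:73247026-73247254, at the pseudogene GTF2IRD2P1 and 55.4 kb from NSUN5, had 35 fragments (24.4 to 48.7) and a fold enrichment of 12.4. It lies close to the NCF1B peak above, which was called in both samples. The peak chr11:36747212-36747369 inside a lncRNA gene near IFTAP had 22 fragments and chr2:209368979-209369280 near MAP2, a gene for a neuronal microtubule protein, had 26. The peak chr10:4704205-4704538 near AKR1E2, a gene for an aldo-keto reductase, had 32. The remaining peaks of this group of 6 were chr14:106153429-106153636 at the immunoglobulin segment IGHV3-15 with 18 fragments and chr18:4510794-4510975 near DLGAP1 with 17.

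Of the 411 members called in DMSO alone, 14 had an inflachromene summit within 1 kb, 26 within 5 kb and 118 within 50 kb. The median distance to the nearest inflachromene summit was 92.1 kb.

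The same position rule applied to the inflachromene list found 403 of 10836 peaks, or 3.72% (3.37% to 4.09%). A DMSO peak overlapped 331 of them, or 82.1% (78.0% to 85.8%). The other 72, or 17.9%, were called in inflachromene alone, compared with 9.62% of all inflachromene peaks, and their median pileup was 13.5. The 4 of highest fold enrichment each had 16 fragments (9.15 to 25.98), near FOXI2 (chr10:127797445-127797628), KRABD4 (chrX:45824626-45824810), ASMT (chrX:1903447-1903648) and VEGFC (chr4:176884217-176884430). Inflachromene-alone peaks among the 403 were fewer than DMSO-alone peaks among the 741. The lists differ in length and were not shortened for this reverse comparison. The median pileup of 13.5 was near the 14 of the members called in DMSO alone.

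Annotation within 1 kb of the summit divided the members further. A tRNA gene lay there for 34 members, an snRNA gene for 10, a miRNA or Y RNA gene for 6, a pseudogene for 68 and an antigen receptor gene segment for 4. Of the rest, 185 lay inside a lncRNA gene and 434 had none of these. How the authors placed reads that map equally well to several near-identical copies is not given in the sources used here, so values at tRNA, U1 and pseudogene copies are uncertain for a single copy.

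The tRNA members, whose median fold enrichment of 7.17 was below the 7.55 of pseudogene members, had the highest median pileup of the larger groups. Their median DMSO pileup was 26.5 fragments, and 25 of 34 had an inflachromene peak (73.5%, 55.6% to 87.1%), against 42.6% (38.9% to 46.4%) of the 697 members with neither a tRNA nor an snRNA gene. Over all DMSO peaks near a tRNA gene the share was 73.5% (155 of 211). At members of at least 23 fragments the overlapped share was 84.0% (21 of 25) for tRNA, 87.0% (20 of 23) for pseudogenes, 81.1% (30 of 37) inside lncRNA genes and 82.9% (92 of 111) with none of these. The tRNA interval was wide (63.9% to 95.5%). Below 23 fragments the shares were 44.4% (4 of 9, 13.7% to 78.8%) for tRNA, 28.9% (13 of 45) for pseudogenes, 29.1% (43 of 148) inside lncRNA genes and 29.4% (95 of 323) with none of these. The 10 snRNA members divided into 5 of 6 overlapped at 23 fragments or more and 3 of 4 below. The summit lay inside the tRNA gene for 10 members and within 100 bp of it for 25.

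**Figure D4:**
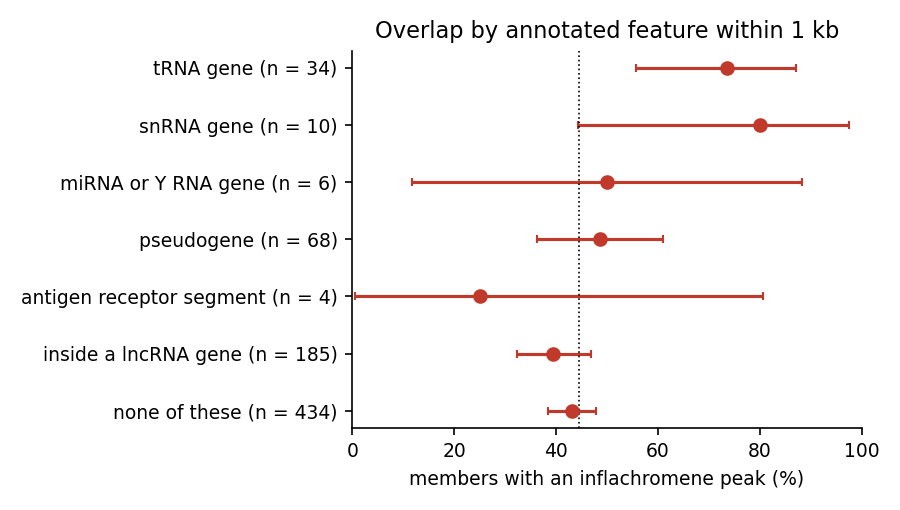
Share of members with an inflachromene peak (horizontal axis, %) by the annotated feature within 1 kb of the summit (vertical axis, number of members in brackets); points are shares, bars exact 95% intervals and the dotted line the share over all members, 44.5%. The tRNA interval (55.6% to 87.1%) lies above that line, and those of the smallest groups span much of the axis.

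Counted by gene, 107 tRNA genes met the far intergenic rule at their midpoint, and 35 of them (32.7%, 24.0% to 42.5%) had a DMSO summit within 1 kb. Of these 35, 26 also had an inflachromene summit there, 9 had none, and 2 further genes had one in inflachromene alone. Over all 443 tRNA genes, 52.6% (47.8% to 57.3%) had a DMSO summit within 1 kb. The interval for far intergenic tRNA genes lay below that for all tRNA genes, which include them. Among 4511 far intergenic pseudogenes, 89 (1.97%, 1.59% to 2.42%) had a DMSO summit within 1 kb. Over all 16454 pseudogenes, which include them, the share was 2.80% (2.55% to 3.06%).

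The tRNA members concentrated on chromosome 6. When members at most 50 kb apart were joined, the 741 formed 582 runs, of which 483 held 1 member, 71 held 2 and 28 held 3 or more. The longest held 14 members, each at a tRNA gene, between summits 27532297 and 27688320 of chromosome 6, over 156.0 kb between ZNF184 and H2BC13, a zinc-finger gene and a histone H2B gene. Of the 14, 11 had an inflachromene peak, 6 with a higher and 5 with a lower pileup than in DMSO, and the median ratio was 1.025.

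The initiator methionine tRNA gene TRX-CAT1-6 was the highest of that run, with 55 fragments in DMSO and 41 in inflachromene. Serine tRNA genes gave 40 and 41 at TRS-TGA2-1, 36 and 47 at TRS-CGA3-1, 23 and 28 at TRS-AGA4-1, 24 and 26 at TRS-AGA1-1, and 27 and 17 at TRS-AGA3-1. The threonine gene TRT-AGT2-2 had 41 and 47, the isoleucine genes TRI-AAT2-1 and TRI-TAT2-3 had 41 and 37 and 18 and 21, the leucine gene TRL-CAA3-1 had 34 and 28, and the valine gene TRV-AAC3-1 had 20 and 17. Called in DMSO alone were TRQ-CTG2-1 for glutamine (27), TRL-CAA2-1 for leucine (25) and TRK-TTT9-1 for lysine (12). Genes for the same amino acid moved in both directions, and their values in DMSO and inflachromene overlapped.

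The second run, of 10 members over 143.3 kb between SCAND3 and TRIM27, lay between summits 28673900 and 28817223 of chromosome 6, and 9 of the 10 were at tRNA genes. Of these 10, 5 had an inflachromene peak, 1 higher and 4 lower, with a median ratio of 0.895. The alanine genes TRA-TGC7-1, TRA-TGC6-1 and TRA-TGC5-1 had 36 and 24, 31 and 21, and 30 and 27 fragments in DMSO and inflachromene, while TRA-AGC1-1 had 25 and 34. The lysine gene TRK-TTT7-1 had 38 and 34. Called in DMSO alone were TRF-GAA3-1 (24), TRA-CGC4-1 (23), TRR-CCG1-1 (22), TRA-CGC2-1 (13) and a peak at no tRNA gene (18).

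**Figure D5:**
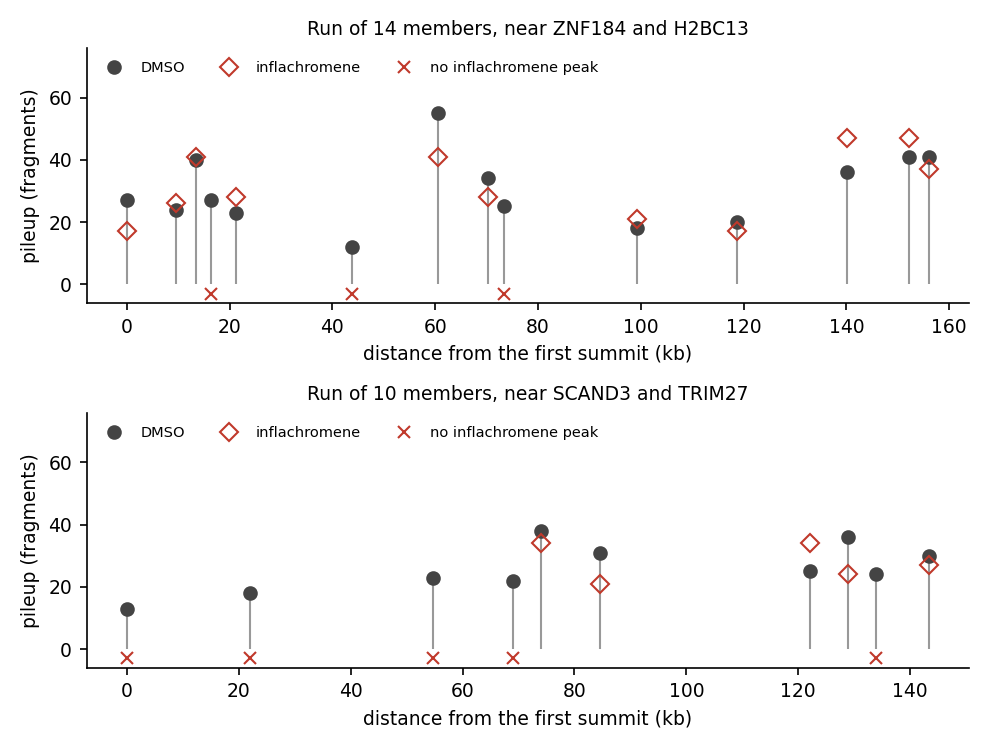
Pileup (vertical axis, fragments) against distance from the first summit of the run (horizontal axis, kb) for the 14 members between ZNF184 and H2BC13 (upper) and the 10 members between SCAND3 and TRIM27 (lower). Filled circles are DMSO, open diamonds inflachromene and crosses below the axis mark members with no inflachromene peak, 3 in the upper and 5 in the lower run.

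Outside those runs, tRNA members included TRQ-CTG4-1 on chromosome 1 with 51 and 36 fragments, TRH-GTG1-4 nearby with 44 and 37, TRT-TGT2-1 with 33 and 24 and TRE-TTC4-2 with 29 and 31. The TRH-GTG1-4 peak, chr1:148302379-148303352, was among the 3 widest members at 974 bp. Another of 974 bp, chr10:78973306-78974279 inside a lncRNA gene near ZMIZ1, had 27 and 31 fragments. The widest, 987 bp, was chr1:146409477-146410463 at the snRNA gene LOC124904634, with 29 and 26.

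All 10 snRNA members lay on chromosome 1 at U1 variant genes or unnamed snRNA genes, and 8 had an inflachromene peak, 7 lower and 1 higher. Over all DMSO peaks near an snRNA gene, which include these, 43 of 48 (89.6%, 77.3% to 96.5%) had one, 37 lower and 4 higher. RNVU1-4 had 31 and 28 fragments, RNVU1-3 had 32 and 22, and RNVU1-8 had 25 and 21. RNVU1-18 had a pair of peaks, of 26 and 20 fragments in DMSO and 15 and 18 in inflachromene. RNVU1-26 also had a pair, of 17 fragments in DMSO with 20 in inflachromene, and of 18 in DMSO alone. LOC124904631 had a pair too, of 21 fragments in DMSO and 18 in inflachromene, and of 23 in DMSO alone. By gene, 7 of 30 far intergenic snRNA genes (23.3%, 9.93% to 42.3%) had a DMSO summit within 1 kb, and the same 7 had an inflachromene summit. Over all 154 snRNA genes, 26.6% (19.8% to 34.3%) had a DMSO summit within 1 kb.

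Pseudogene members had an inflachromene peak in 33 of 68 cases (48.5%, 36.2% to 61.0%), with a median ratio of 0.842, 27 lower and 5 higher. Besides those named, the highest in DMSO were SLC7A5P2 near METTL9 with 74 and 56 fragments, LOC105379482 near LOC124904970 with 69 and 52, and RNA5SP19, a copy of the 5S ribosomal RNA gene, near RNF187 with 54 and 48. These were chosen after their values were seen. Immunoglobulin and T-cell receptor segments held 4 members, of 9 to 18 fragments, with 1 called in both samples.

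Members inside lncRNA genes, or at none of the features listed, made up 619 of 741. Candidates for distal regulatory elements by position alone are among them, but so is the peak over the LOC105373480 promoter window. Ribosomal RNA genes were not among the features searched. An inflachromene peak overlapped 260 of the 619 members (42.0%, 38.1% to 46.0%), and the median ratio was 0.857, with 176 lower and 69 higher. Whether any of them acts as an enhancer was not tested.

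The nearest protein-coding gene is a label of position, not a target. The 741 members had 518 distinct nearest genes. A list of 95 genes for transcription factors, growth-factor signalling and cell identity in pancreatic cancer cells was drawn up from general knowledge. Of these, 17 were the nearest gene of 34 members, 13 of which had an inflachromene peak (38.2%, 22.2% to 56.4%), against 44.8% of the other 707.

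MYC, a growth-promoting transcription factor, was the nearest gene of 7 members at 88.8 to 812 kb. Their DMSO pileups were 20, 20, 19, 19, 20, 23 and 14 in order of distance. Inflachromene peaks were called at the third (25), the fifth (16), the sixth (32) and the seventh (18), so that 3 were higher and 1 lower, and the other 3 members were called in DMSO alone. All pileups of the MYC members in both samples lay between 14 and 32 with overlapping counting intervals.

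KLF6, a zinc-finger transcription factor, had 4 members. The nearest, chr10:3852348-3852726 at 67.3 kb, was 49 fragments high in DMSO and 30 high in inflachromene, and the others, of 16, 13 and 11, were called in DMSO alone. JUN, a subunit of AP-1, had 3 members of 32, 14 and 13 fragments with 33, no peak and 11 in inflachromene. HMGA2, a chromatin protein that bends DNA, had 3 of 22, 26 and 16 with 16, 15 and no peak. TGFB2, the ligand TGF-beta 2, had 3 of 31, 11 and 14, the first with 24 and the others with none.

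SOX9, a ductal transcription factor, had 2 members of 16 and 13 fragments and TFAP2C, another transcription factor, 2 of 18 each, and none of these 4 had an inflachromene peak. CCND1, the cyclin D1 gene, had 1 member of 26 fragments with 22 in inflachromene, and is named as the first in the alphabet among the genes with 1 member.

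Other neighbours formed local groups. A group of 6 members lay between ERRFI1, whose product restrains EGF receptor signalling, and SLC45A1, over summits 8084017 to 8238269 of chromosome 1. The 3 called in both samples were higher in inflachromene, with 19 and 22, 17 and 19, and 42 and 48 fragments, and the 3 called in DMSO alone had 14, 16 and 20. Another 6 lay near IFNE over summits 21549606 to 21616329 of chromosome 9, with 29, 38, 43, 47, 80 and 29 fragments in DMSO. Their inflachromene pileups were 37, 36, no peak, 49, 68 and no peak, and the median local background of the run was 8.81 fragments, against 1.52 over all members. Whether the background had a part in these values was not tested.

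By chromosome, members were most numerous on chromosome 6 (79), chromosome 1 (76), chromosome 2 (65) and chromosome 10 (55). As a share of a chromosome's DMSO peaks they ran from 0.348% on chromosome 19 (4 of 1151) to 8.66% on chromosome 21 and 8.52% on chromosome 6. An inflachromene peak overlapped 20 of 29 members on chromosome 15 and none of the 4 on chromosome 19, the highest and lowest shares, against 44.5% of all members. The median DMSO pileup of members was 18 on chromosome 15 and 14 on chromosome 19.

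By distance to the nearest gene end, the overlapped share was 45.6% of 228 members at 50 to 75 kb, 42.9% of 140 at 75 to 100 kb, 47.2% of 218 at 100 to 200 kb and 43.2% of 125 at 200 to 500 kb. Beyond 500 kb it was 30.0% of 30 (14.7% to 49.4%), an interval that includes the other shares, and the median pileup there was 13 against 16 to 18 in the nearer bins. The 3 members farthest from a gene were chr22:11974186-11974384 at 3554 kb with 9 fragments, chr2:82790494-82790666 at 1633 kb with 12 and chr10:39633834-39633991 at 1484 kb with 12, and none had an inflachromene peak.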

How the data were processed

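ChIPmentation peak lists of 2 samples (DMSO, inflachromene; 1 each) were analysed. The hg38 build, MACS2 and deepTools 3.5.6 are named per the submitters' processing notes. The aligner and duplicate handling are not given in the sources consulted. Each row of the deposited lists holds a position, an integer score (not used), the fold enrichment at the summit as a ratio, and the authors' −log10 p-value and −log10 q-value. No deposited −log10 q was below 3.02 (DMSO) or 3.01 (inflachromene). Whole-number pileups and local backgrounds were recovered from the deposited fold enrichment and −log10 p-value through MACS2's formulas, within 0.001 of −log10 p for every analysed peak. The recovery was tested on simulated data. No control library was used here.

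Summits were placed against 19974 protein-coding and 18177 lncRNA genes of a RefSeq gene table (GRCh38.p14, the same coordinates as hg38). Features were assigned in the order tRNA, snRNA, miRNA or Y RNA, pseudogene, antigen receptor segment, lncRNA gene. Motifs were not compared over all members, as had been planned, because no genome sequence was used here; promoter windows and microRNAs came from RefSeq tables.

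The members and lists were chosen with earlier results of these data known. Named members were the 8 overlapped and 6 not overlapped of highest fold enrichment, the 3 widest, the 3 farthest, the 4 lowest and 4 highest ratios at a mean pileup of at least 30, the 4 largest runs, the 4 inflachromene-alone peaks of highest fold enrichment and the 8 listed genes with most members. Alternatives were other overlap rules, a stricter −log10 q, equal list lengths (the lists ranked by −log10 q), other distances, midpoints, and omission of lncRNA-gene, clustered, high-background, or tRNA and snRNA members. Python 3.11.15, pandas 2.3.3, numpy 2.4.6, scipy 1.17.1 and matplotlib 3.10.9 were used.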

Additional observations from a re-analysis of the deposited data

How the results depend on the processing

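The overlapped share of 44.5% became 39.4% when each peak had to cover at least 50% of the other, and 64.9% when both lists were taken at the length of the shorter, which removes the weakest DMSO peaks and leaves 388 members; the median ratio then became 0.813. The number of members was 1228 beyond 25 kb and 373 beyond 100 kb, by construction. All other alternatives stayed within the counting interval of the share or the median, with shares of 42.6% to 46.2% and ratios of 0.842 to 0.867. Leaving out the members within 1 kb of a tRNA or snRNA gene, an alternative chosen after the data were seen, gave 42.6% and 0.857. No paired analysis was possible because each treatment has 1 sample. Low pileups limit what can be said of single peaks: below 13 fragments, 15 of 165 members were called in both samples. The cause of any difference between the samples was not tested.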

Other observations

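In all, 6 members lay in the immunoglobulin heavy-chain locus on chromosome 14, with TMEM121 as the nearest protein-coding gene. Their DMSO pileups were 20, 9, 18, 14, 8 and 10 fragments, and the first had an inflachromene peak, of 19.

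Members in the highest 5% of local background over all DMSO peaks, above 5.39 fragments, numbered 18, or 2.43% of members. Of these, 13 (72.2%, 46.5% to 90.3%) had an inflachromene peak, compared with 609 of 760 DMSO peaks (80.1%) above that background. The highest background, 14.001, was at chr21:8987969-8988673 beside MIR10396A, with 78 fragments in DMSO and 70 in inflachromene. Near MTAP on chromosome 9, peaks of 63 and 53 fragments in DMSO had 53 and 49 in inflachromene, and another, of 43, had none. These peaks were chosen after their values were seen.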
